A study of Mus musculus with 6 samples.

Results

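The genes described are 42 members of the machinery by which a fibroblast makes and secretes collagen, chosen by name and found by symbol among the 33696 genes of the count matrices. They fall into 10 roles, from the channel through which a growing chain enters the endoplasmic reticulum (ER) to the coat that carries it out, and include 12 genes that act mainly on collagen and 3 that report on stress of the ER. All 42 were found, on 43 rows, because *Ddit3* had a second row with 0 UMIs in all libraries, and all of its UMIs came from ENSMUSG00000025408.

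Achilles tendons were taken from *Gli1*-CreERT2; Ai9 mice that were uninjured or were 7 or 21 days past tenotomy, in which the tendon is cut (7 dpi and 21 dpi), an injury followed by heterotopic ossification. All mice, the uninjured ones included, carried a tamoxifen-induced Cre driven by the *Gli1* promoter and the Ai9 tdTomato reporter, so that red cells are the lineage of cells that used this promoter at the time of tamoxifen and need not hold the transcript when sampled. As the sources describe it, cells of 8 mice were pooled at each time point and sorted by the reporter into Gli1+ and Gli1- fractions. This gave 6 libraries of single cells, 1 for every fraction and time. The age of the mice was not given in the sources used here. Neither cells nor libraries map to mice, each fraction and time has 1 library, and no test between conditions was made. A fit of the fractions over the 3 times, with time as a block, was not made either. The 95% intervals given here cover counting error alone, and how much mice differ is unknown.

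Collagen chains enter the ER through the Sec61 channel, with help from the translocon-associated protein (TRAP) complex, and lose their signal peptide to the signal peptidase. Inside, prolyl 4-hydroxylases make the hydroxyproline that keeps the triple helix stable at body temperature, lysyl hydroxylases prepare the lysines that are later crosslinked or glycosylated, and Hsp47, the product of *Serpinh1*, binds the folded helix. General chaperones and disulfide isomerases fold the globular ends, and coat protein complex II (COPII) carries the cargo to the Golgi. When folding falls behind, the unfolded protein response raises chaperones, and *Ddit3*, *Herpud1* and *Xbp1* are among its usual transcripts.

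The main values are sums over cells with at least 1 UMI of *Pdgfra*, a receptor that marks fibroblasts. Of these there were 1866, 5245 and 5602 in the Gli1+ fraction (uninjured, 7 dpi and 21 dpi, the order used throughout) and 5343, 7175 and 5913 in the Gli1- fraction. Levels are UMIs per 1000000 (CPM), and because UMIs were counted from the 3 prime end, levels of different genes are not compared. These cells held *Dcn*, *Lum*, *Prrx1* and *Twist2*, markers of the mesenchyme, in every library, but at levels that moved with time. *Dcn* was at 16146, 3637 and 8339 CPM in Gli1+ cells and at 18718, 5091 and 7904 CPM in Gli1- cells, and *Pdgfra* itself at 417, 224 and 272 CPM and at 551, 260 and 277 CPM. *Lum* went the other way, at 502, 942 and 2054 CPM in Gli1+ cells and at 748, 1086 and 2228 CPM in Gli1- cells. *Prrx1* was at 389, 373 and 365 CPM and at 212, 372 and 334 CPM. *Twist2* was lowest before injury in both fractions. The part of these shifts in the results was not tested beyond the other choices of cells that were tried. Between 2.16% and 6.60% of the cells also matched the markers of another cell type. Their median depth ran from 6011 UMIs per cell in the uninjured Gli1- library to 12425 in the Gli1- library at 7 dpi. Pairs of libraries shared 27 to 75 cell barcodes.

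Several features moved with time and stand beside every comparison below. A list of 10 genes induced by tissue dissociation was at 24367 and 31438 CPM in the uninjured Gli1+ and Gli1- libraries and between 11743 and 14752 CPM after injury. Sex differed as well, although the labels give equal numbers of both. Cells with Y-linked and no *Xist* UMIs made up 22.0%, 78.2% and 0.0893% of the Gli1+ cells and 72.4%, 78.8% and 0.0338% of the Gli1- cells. In the uninjured libraries, cells with *Xist* and no Y-linked UMIs were 64.3% of the Gli1+ and 0% of the Gli1- cells. It is therefore not settled that both uninjured fractions came from the same mice. The part of these features in the results was not tested further than by the values within one sex given below, and sex and time cannot be told apart between 7 and 21 dpi in either fraction or between uninjured and 21 dpi in Gli1- cells. In uninjured Gli1+ tendon, the one library with many cells of each kind, the secretion and folding genes summed to 6062 CPM in cells with *Xist* and no Y-linked UMIs and to 6881 CPM in the converse cells, a log2 ratio of -0.18 (-0.20 to -0.16). Markers of the epidermis summed to 4408 CPM in the Gli1+ cells at 7 dpi, against 35.6 to 633 CPM in the other 5 libraries.

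The secretion and folding genes as a group were highest at 7 dpi in both fractions. Together they held 6220, 12631 and 9534 CPM in Gli1+ cells and 6023, 13297 and 9859 CPM in Gli1- cells, so that both fractions had about the same level at each time. In the Gli1+ fraction the log2 ratio over the uninjured library was 1.02 (95% interval 1.01 to 1.03) after 7 days, and after 21 days it was 0.62 (0.61 to 0.62). The Gli1- fraction gave 1.14 (1.14 to 1.15) and then 0.71 (0.70 to 0.72). In cells with Y-linked and no *Xist* UMIs the ratio at 7 dpi was 0.89 in the Gli1+ and 1.16 in the Gli1- fraction, and in cells with *Xist* and no Y-linked UMIs the ratio at 21 dpi was 0.65 in the Gli1+ fraction. A cell held 66.2, 154 and 107 UMIs of these genes on average in the Gli1+ fraction, against 40.2, 177 and 108 in the Gli1- fraction.

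A gene is counted as higher or lower where its log2 ratio passed 0.58 or -0.58, among genes with at least 50 UMIs in both libraries together. At 7 dpi, 31 of 42 members were higher in Gli1+ cells, where 22.1% of all genes were, and 31 in Gli1- cells, where 23.4% were. These were the same 31 genes in both fractions. Only *Herpud1* was lower in either fraction, beside 32.8% and 27.1% of all genes. At 21 dpi 21 members were higher in Gli1+ cells (14.8% of all genes) and 22 in Gli1- cells (20.8%), with 19 shared, and no member was lower (35.6% and 27.8% of all genes). All members that were higher at 21 dpi were also higher at 7 dpi. How far the calls over all genes overlap between fractions or times was not computed, so these overlaps are not shown to be particular to the members. The median log2 ratio of the members was 0.95, 0.58, 0.996 and 0.61 in the 4 comparisons (Gli1+ at 7 and 21 dpi, then Gli1-), beside medians of all genes of -0.17, -0.31, -0.07 and -0.11.

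Scaling by TMM, which assumes that most genes do not change, adds 0.30, 0.46, 0.11 and 0.18 to the log2 ratios of these comparisons. The counts of higher members became 33, 30, 32 and 25, with no member lower, and the shares of all genes became 31.4%, 30.2%, 27.0% and 26.9% higher and 23.2%, 18.9%, 23.4% and 21.3% lower. The Gli1+ comparisons are the ones in which the split over all genes moved most.

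**Figure D1:**
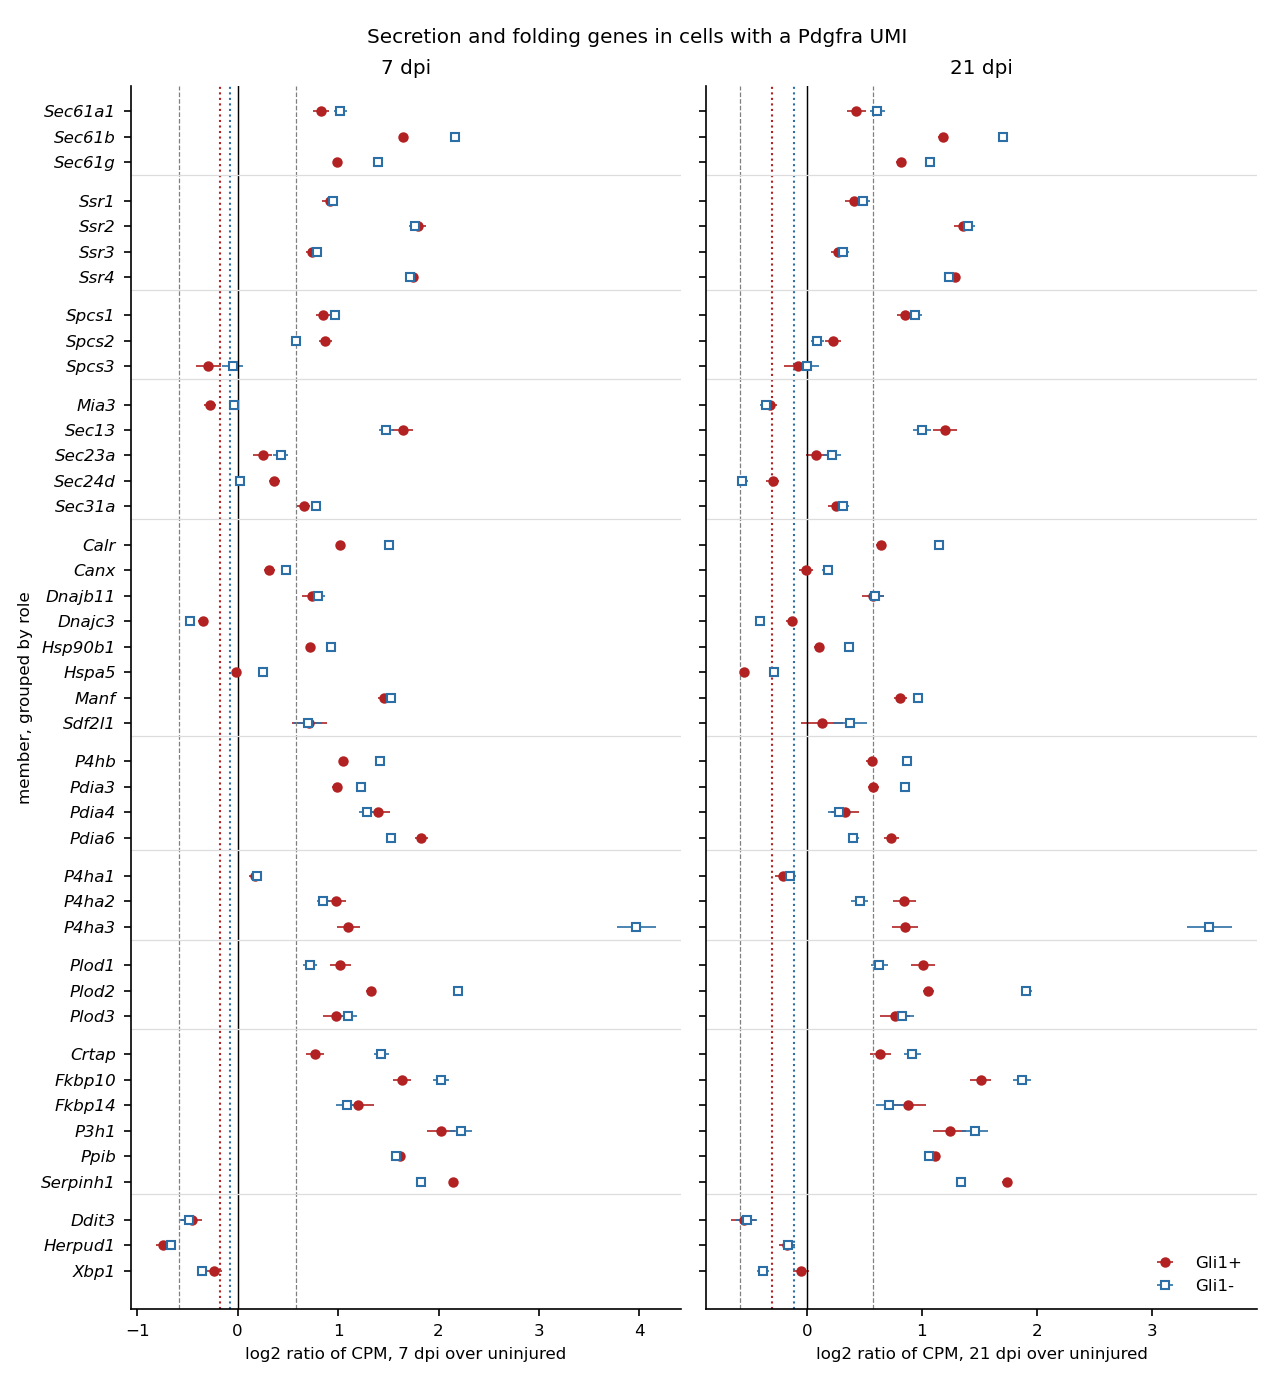
Log2 ratio of the CPM at 7 dpi (left) and 21 dpi (right) over uninjured tendon for the 42 genes, grouped by role, in Gli1+ (filled circles) and Gli1- (open squares) cells with a *Pdgfra* UMI, with 95% counting intervals as bars, dashed lines at 0.58 and -0.58, and dotted lines at the median of all genes of each fraction. Most members lie to the right of 0.58 at 7 dpi, the 3 stress genes lie to the left of 0 (with TMM scaling *Xbp1* in Gli1+ cells would lie at 0.07 and 0.41 and *Herpud1* at 21 dpi at 0.29 and 0.02), and *P4ha3* in Gli1- cells stands far to the right at 3.97 and 3.50.

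Every member of the collagen chaperones and the prolyl 3-hydroxylase complex was higher in all 4 comparisons. Their summed level was 944, 3271 and 2431 CPM in Gli1+ cells and 1038, 3396 and 2427 CPM in Gli1- cells. *Serpinh1* (Hsp47) was at 331, 1465 and 1106 CPM in Gli1+ cells and at 439, 1559 and 1113 CPM in Gli1- cells. The uninjured libraries were lowest in both fractions, and 7 dpi was 4.42-fold and 3.55-fold above them, a log2 ratio of 2.14 (2.11 to 2.18) and 1.83 (1.81 to 1.85). *P3h1*, the prolyl 3-hydroxylase, was at 22.6, 91.9 and 53.6 CPM and at 21.6, 101 and 59.4 CPM. Its partner *Crtap* was at 61.0, 104 and 95.2 CPM and at 49.6, 134 and 93.8 CPM, and *Ppib*, the cyclophilin of the same complex, at 453, 1392 and 981 CPM and at 462, 1381 and 967 CPM. All 3 parts of the complex had their highest CPM at 7 dpi, with log2 ratios over uninjured from 0.77 for *Crtap* in Gli1+ cells to 2.22 for *P3h1* in Gli1- cells.

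*Fkbp10* and *Fkbp14* encode peptidyl-prolyl isomerases of the ER that act on procollagen, and the loss of either causes a connective tissue disease in people. *Fkbp10* was at 55.3, 172 and 158 CPM in Gli1+ cells and at 42.7, 174 and 157 CPM in Gli1- cells. *Fkbp14* was at 20.0, 46.1 and 36.8 CPM and at 22.8, 48.5 and 37.6 CPM. *Fkbp10* at 21 dpi was still near its level of 7 dpi, at a log2 ratio over uninjured of 1.51 (1.42 to 1.61) in the Gli1+ fraction and 1.87 (1.80 to 1.95) in the Gli1- fraction.

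The 3 alpha subunits of prolyl 4-hydroxylase, each of which can pair with the beta subunit P4hb, did not move alike. *P4ha1* was at 127, 143 and 110 CPM in Gli1+ cells and at 122, 140 and 111 CPM in Gli1- cells, with log2 ratios of 0.17, -0.21, 0.19 and -0.14, of which those at 21 dpi would be 0.25 and 0.04 with TMM scaling. In uninjured Gli1+ tendon *P4ha1* was at 160.1 CPM in cells with Y-linked and no *Xist* UMIs and at 112 CPM in the converse cells, and among the former the ratio at 7 dpi was -0.14 (-0.26 to -0.0253). *P4ha2* was at 46.8, 92.2 and 84.3 CPM and at 60.0, 108 and 82.5 CPM, higher at 7 dpi in both fractions. *P4ha3* was at 36.8, 78.9 and 66.6 CPM in Gli1+ cells and at 6.34, 99.3 and 71.8 CPM in Gli1- cells. The uninjured Gli1- library was the lowest of the 6 for this gene, which gave log2 ratios of 3.97 (3.78 to 4.17) and 3.50 (3.31 to 3.70) there, against 1.10 (0.99 to 1.21) and 0.86 (0.74 to 0.97) in Gli1+ cells.

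All 3 lysyl hydroxylases were higher in all 4 comparisons. *Plod2*, which hydroxylates the telopeptides of collagen and so favors stable crosslinks, was at 187, 468 and 389 CPM in Gli1+ cells and at 115, 527 and 433 CPM in Gli1- cells. *Plod1*, which acts on the helix, was at 44.9, 91.2 and 90.6 CPM and at 60.5, 99.8 and 93.8 CPM. *Plod3*, which also glycosylates the hydroxylysines, was at 30.0, 59.2 and 51.2 CPM and at 31.9, 68.3 and 56.8 CPM. *Plod2* moved most, by a log2 ratio of 1.32 (1.27 to 1.37) and 2.19 (2.15 to 2.24) at 7 dpi, and *Plod1* held nearly the same level at 7 and 21 dpi in both fractions.

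**Figure D2:**
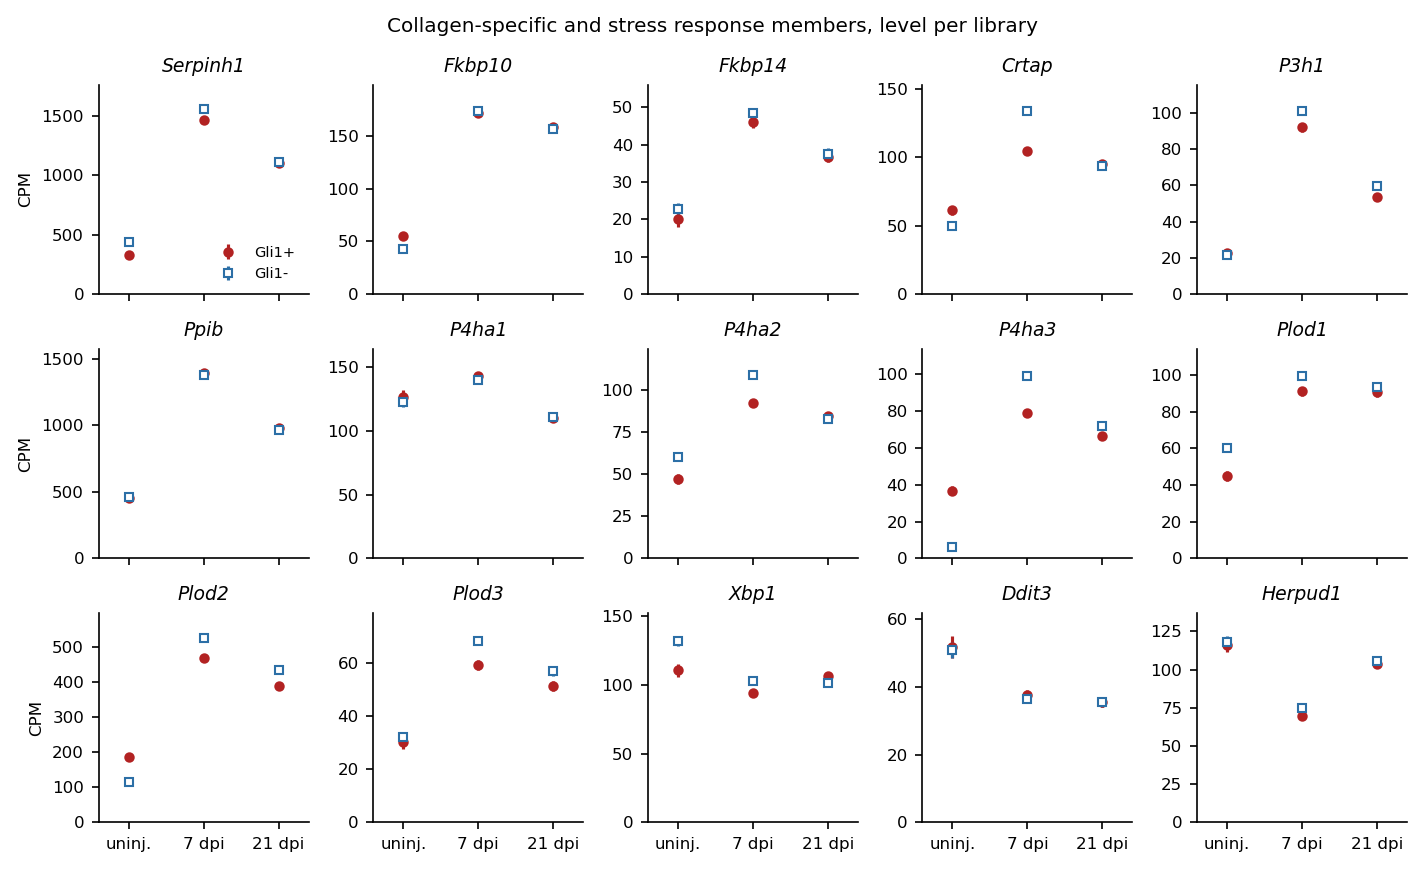
Level in CPM (y axis from 0, own scale for each gene) of the 12 collagen-specific genes and the 3 stress genes in uninjured tendon and at 7 and 21 dpi, in Gli1+ (filled circles) and Gli1- (open squares) cells with a *Pdgfra* UMI, with 95% counting intervals. On this scale *Serpinh1*, *Ppib*, *P3h1* and *Fkbp10* are lowest before injury and highest at 7 dpi, and *P4ha1* lies between 110 and 143 CPM throughout. *Xbp1*, *Ddit3* and *Herpud1* are highest before injury on this scale. With TMM scaling *Xbp1* in Gli1+ cells and *Herpud1* at 21 dpi would not be below uninjured, and *Fkbp10* in Gli1+ cells would be highest at 21 dpi.

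Among the 3 Sec61 genes, which form the entry to the ER, the small subunits were the ones that moved most. *Sec61b* was at 213, 670 and 486 CPM in Gli1+ and at 150.2, 674 and 491 CPM in Gli1- cells, and *Sec61g* at 279, 555 and 493 CPM and at 229, 602 and 481 CPM. *Sec61a1*, which forms the pore itself, was at 74.0, 131 and 99.7 CPM and at 70.0, 142 and 107 CPM. All 3 were higher at 7 dpi, by log2 ratios of 1.65 and 2.17 for *Sec61b* and 0.83 and 1.02 for *Sec61a1*.

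The 4 TRAP subunits, which help chains with weak signal sequences into the channel, were all higher at 7 dpi. *Ssr2* was at 75.1, 262 and 193 CPM in Gli1+ and at 74.5, 253 and 197 CPM in Gli1- cells, and *Ssr4* at 214, 719 and 522 CPM and at 226, 745 and 534 CPM. *Ssr3* was at 147, 246 and 178 CPM and at 146, 252 and 182 CPM, and *Ssr1* had log2 ratios of 0.92 and 0.95 at 7 dpi. At 21 dpi *Ssr2* and *Ssr4* were still higher in both fractions (1.24 to 1.40), and *Ssr1* and *Ssr3* were within 0.49 of the uninjured level. With TMM scaling *Ssr1* would pass 0.58 there too, at 0.87 and 0.67, as would *Ssr3* in Gli1+ cells at 0.73 but not in Gli1- cells at 0.50.

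Of the signal peptidase, the accessory subunits *Spcs1* (101, 182 and 182 CPM, then 97.1, 190 and 187 CPM) and *Spcs2* (106, 194 and 124 CPM, then 122, 183 and 131 CPM) were higher at 7 dpi. *Spcs3*, a subunit needed for cleavage, was not, at 35.9, 29.4 and 34.0 CPM and at 29.9, 28.9 and 29.9 CPM. *Spcs1* stayed at the level of 7 dpi, while *Spcs2* was back near the uninjured level at 21 dpi, with log2 ratios of 0.23 and 0.0934, although with TMM scaling it would pass 0.58 in Gli1+ cells at 0.69.

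Disulfide isomerases were higher at 7 dpi in both fractions. *P4hb*, which is both an isomerase and the beta subunit of prolyl 4-hydroxylase, was at 219, 455 and 325 CPM in Gli1+ cells and at 188, 500.3 and 345 CPM in Gli1- cells. *Pdia6*, an isomerase with a broad set of clients, was at 109, 386 and 181 CPM and at 136, 392 and 181 CPM. *Pdia3*, the partner of the lectin chaperones, was at 246, 487 and 368 CPM and at 219, 512 and 396 CPM. *Pdia4* was at 33.7, 89.0 and 42.5 CPM and at 34.1, 83.6 and 41.6 CPM. *Pdia4* and *Pdia6* were the members that dropped most from 7 to 21 dpi.

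The general chaperones did not move as a block. *Manf*, an ER resident neurotrophic factor, was at 147, 402 and 258 CPM in Gli1+ and at 140, 403 and 274 CPM in Gli1- cells. *Calr*, the calcium-binding lectin chaperone, was at 349, 708 and 545 CPM and at 288, 820 and 637 CPM. *Hspa5*, which encodes BiP, the master chaperone and sensor partner of the ER, was at 705, 698 and 481 CPM and at 625, 747 and 513 CPM. *Hspa5* did not pass 0.58 in any comparison, with log2 ratios of -0.01 (-0.04 to 0.01), -0.55 (-0.58 to -0.52), 0.26 (0.23 to 0.28) and -0.29 (-0.31 to -0.26), and TMM scaling would give 0.29, -0.09, 0.37 and -0.10. *Dnajc3*, a cochaperone of BiP and inhibitor of the kinase PERK, was at 249, 196 and 227 CPM and at 289, 209 and 219 CPM, highest before injury in both fractions on this scale, while with TMM scaling the ratio at 21 dpi in Gli1+ cells would be 0.33. *Hsp90b1*, *Dnajb11* and *Sdf2l1* were higher at 7 dpi in both fractions, by 0.70 to 0.93, and *Canx*, the membrane-bound lectin chaperone, was not, at 166, 207 and 166 CPM and at 155, 216 and 176 CPM, although with TMM scaling it would pass at 0.62 and 0.59. In cells with Y-linked and no *Xist* UMIs the Gli1+ ratio at 7 dpi was 0.47 for *Hsp90b1*.

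Among the COPII genes the outer coat was higher at 7 dpi, and the inner coat and the procollagen receptor did not pass 0.58 without TMM scaling. *Sec13*, of the outer coat, was at 41.2, 129 and 94.9 CPM in Gli1+ and at 51.1, 143 and 102 CPM in Gli1- cells, and its partner *Sec31a* at 118, 186 and 140 CPM and at 118, 203 and 147 CPM. The Gli1+ ratio of *Sec31a* at 7 dpi was 0.66, and 0.49 in cells with Y-linked and no *Xist* UMIs. *Mia3* encodes TANGO1, the receptor that loads bulky procollagen into COPII carriers, and was at 145, 120 and 116 CPM and at 147, 144 and 115 CPM. Its level at 7 dpi in Gli1- cells could not be told from that before injury, at a log2 ratio of -0.03 (-0.08 to 0.01). *Sec23a* and *Sec24d*, inner coat genes whose loss impairs collagen export in the skeleton, had log2 ratios between 0.03 and 0.43 at 7 dpi, and with TMM scaling *Sec24d* would pass 0.58 in Gli1+ cells at 0.67. *Sec23a* was at 59.4, 70.7 and 63.0 CPM and at 55.02, 74.0 and 63.9 CPM, and the ratios of *Sec24d* at 21 dpi were -0.30 and -0.56 (0.16 and -0.38 with TMM scaling). With TMM scaling the ratios of *Mia3* would be 0.03, 0.14, 0.08 and -0.17, so that its direction depends on the scaling in 3 of 4 comparisons.

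The 3 stress genes had their highest CPM before injury in both fractions. *Herpud1*, a factor of ER-associated degradation, was at 116, 69.5 and 103 CPM in Gli1+ cells and at 118, 74.7 and 106 CPM in Gli1- cells, and its log2 ratio at 7 dpi was -0.74 (-0.82 to -0.67) and -0.66 (-0.72 to -0.61). *Ddit3*, which encodes the stress factor CHOP, was at 51.6, 37.6 and 35.3 CPM and at 50.8, 36.2 and 35.4 CPM. *Xbp1*, whose product drives chaperone genes after its RNA is spliced, was at 110, 94.2 and 107 CPM and at 132, 103 and 101 CPM, and the counts do not tell spliced from unspliced RNA. With TMM scaling *Herpud1* and *Ddit3* kept a negative ratio at 7 dpi in both fractions, but *Herpud1* at 21 dpi became 0.29 and 0.02, and *Xbp1* in Gli1+ cells became 0.07 and 0.41. The dissociation genes were also highest in the uninjured libraries, and their part in these levels was not tested.

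A motif in the promoter sets apart some of the folding genes. The ER stress element (ERSE, the letters CCAAT and CCACG with any 9 bases between them) and its shorter form (ERSE-II, ATTGG and CCACG with any 1 base between them) are bound by ATF6 and XBP1, with NF-Y at the CCAAT box. RefSeq promoter windows on GRCm38.p6, from 250 bases before to 50 bases after the start of a gene, were searched for exact matches on both strands. Windows were found for 36 of the 42 members. ERSE was matched in 6 of them and in 0.137% of the 27025 genes with a window, and ERSE-II in 2 of them and in 0.0444%. The sites do not overlap. The sites of these 8 genes are shown because the genes share this element and yet differed in their levels. Each is written 5′ to 3′ in the direction of the element, with the element in capitals and 10 bases on each side.

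*Hspa5*, ERSE, chr2:34772015-34772053, plus strand: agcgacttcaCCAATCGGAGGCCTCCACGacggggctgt
*Hsp90b1*, ERSE, chr10:86705628-86705666, minus strand: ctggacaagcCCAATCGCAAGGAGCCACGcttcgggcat
*Hsp90b1*, ERSE, chr10:86705523-86705561, plus strand: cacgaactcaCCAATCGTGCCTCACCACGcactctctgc
*Calr*, ERSE, chr8:84847065-84847103, plus strand: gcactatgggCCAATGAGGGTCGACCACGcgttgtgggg
*Canx*, ERSE, chr11:50325790-50325828, minus strand: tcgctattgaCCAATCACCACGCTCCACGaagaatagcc
*Dnajc3*, ERSE, chr14:118937817-118937855, plus strand: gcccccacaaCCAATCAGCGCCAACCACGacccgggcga
*Pdia6*, ERSE, chr12:17266481-17266519, plus strand: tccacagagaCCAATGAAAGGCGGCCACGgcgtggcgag
*Herpud1*, ERSE-II, chr8:94386367-94386397, plus strand: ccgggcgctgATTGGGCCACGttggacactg
*Dnajb11*, ERSE-II, chr16:22857842-22857872, plus strand: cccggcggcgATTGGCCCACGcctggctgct

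The element of *Hspa5* lies 65 to 47 bases before the start and that of *Herpud1* 52 to 42 bases before it. At 7 dpi these 8 genes ran from -0.74 (*Herpud1*) to 1.83 (*Pdia6*) in Gli1+ cells and from -0.66 to 1.52 in Gli1- cells, with medians of 0.52 and 0.64. The higher ones were *Pdia6*, *Calr*, *Hsp90b1* and *Dnajb11* in both fractions. The 28 members with a window and without either element had medians of 0.98 and 1.03. At 21 dpi the medians were 0.05 and 0.27 for the 8 genes and 0.61 and 0.68 for the 28. The 10 collagen-specific members with a window held neither element, and their medians were 1.06 and 1.26 at 7 dpi. Since only 0.181% of all genes held either element, its absence from 10 genes does not set them apart. A further motif, the unfolded protein response element (UPRE, TGACGTGG), was matched in *Sec23a* and *Sec24d* and in 0.714% of all genes. These matches describe letters in a window and not binding.

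The time course was the same for most members in both fractions. In 32 of 42 members the order was 7 dpi, 21 dpi and uninjured from high to low in Gli1+ and in Gli1- cells alike, and 35 members were highest at 7 dpi in both. This is the order of CPM, and the share of all genes with it was not computed. The exceptions in either fraction were *Spcs3*, *Sec24d*, *Mia3*, *Hspa5*, *Canx*, *Dnajc3*, *P4ha1*, *Xbp1*, *Ddit3* and *Herpud1*. Neighbours in this order were nearly equal for some genes, such as *Spcs1* in Gli1+ cells and *Plod1* in both fractions at 7 and 21 dpi. TMM scaling adds 0.16 to the Gli1+ log2 ratios of 21 over 7 dpi. *Fkbp10*, *P4ha2*, *Plod1* and *Spcs1*, among others, would then be highest at 21 dpi in Gli1+ cells. *P4ha1* in both fractions and *Sec24d* and *Canx* in Gli1+ cells would take the common order. Both counts and the exceptions therefore depend on the scaling.

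Cells were mostly Y-linked at 7 dpi and mostly *Xist* at 21 dpi, so that time and sex cannot be told apart here. From 7 to 21 dpi, 7 members were lower in Gli1+ cells, where 19.8% of all genes were, and 4 in Gli1- cells, where 14.4% were. These counts are near or under what the shares of all genes would give. No member was higher (10.4% and 11.8% of all genes). With TMM scaling 3 members were lower in each fraction, *Pdia6*, *Pdia4* and *P3h1* (15.3% and 12.2% of all genes), and *Herpud1* was higher in Gli1+ cells at 0.73 (14.7% and 13.9% of all genes). *Pdia6* had a log2 ratio of -1.09 (-1.12 to -1.06) in the Gli1+ fraction and of -1.12 (-1.15 to -1.09) in the Gli1- fraction, and *Pdia4* one of -1.07 and -1.01. *P3h1* followed with -0.78 and -0.76, and *Herpud1* moved the other way, by 0.57 and 0.50. The 10 collagen genes that serve as the main cargo, *Col1a1*, *Col1a2* and *Col3a1* among them, were at 13248, 45386 and 45968 CPM in Gli1+ cells and at 10801, 53426 and 40580 CPM in Gli1- cells. In Gli1+ cells the cargo level at 21 dpi was close to that at 7 dpi while that of the machinery was lower. The machinery held 0.470, 0.278 and 0.207 UMIs per cargo UMI there, and 0.558, 0.249 and 0.243 in the Gli1- fraction.

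Gli1+ and Gli1- cells of the same time point differed little in these genes. The summed log2 ratio of Gli1+ over Gli1- before injury was 0.05 (0.04 to 0.06). After 7 days it was -0.07 (-0.08 to -0.07) and after 21 days -0.05 (-0.05 to -0.04), and TMM scaling turned the uninjured ratio to -0.19. In uninjured tendon 2 members were higher in Gli1+ cells and none lower, where 21.3% of all genes were higher and 9.52% lower. With TMM scaling 1 member was higher and 3 lower, *P4ha2* (-0.59), *Plod1* (-0.67) and *Serpinh1* (-0.64), beside 15.3% and 16.3% of all genes. At 7 dpi no member passed 0.58 in either direction (8.13% and 4.95% of all genes), and the members lay between -0.36 and 0.09. At 21 dpi none did either (3.01% and 5.40%), and they lay between -0.23 and 0.19.

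The 2 members were *P4ha3*, at 36.8 against 6.34 CPM, a log2 ratio of 2.54 (2.32 to 2.76), and *Plod2*, at 187 against 115 CPM, a ratio of 0.70 (0.63 to 0.76). With TMM scaling they were at 2.30 and 0.46, so that *Plod2* no longer passed 0.58. The uninjured libraries differed in sex, with *Xist* and no Y-linked UMIs in 64.3% of the Gli1+ and 0% of the Gli1- cells. They may therefore not come from the same mice. Among cells with Y-linked and no *Xist* UMIs *P4ha3* was at 28.4 against 7.36 CPM, a ratio of 1.95 (1.61 to 2.28), and the part of sex was not tested further. In adventitial-like cells it was at 57.8 against 13.5 CPM and in the mesenchymal cells of no named type at 34.3 against 4.51 CPM. Tenocyte-like cells did not show the difference, at 15.9 against 18.9 CPM. The higher *Plod2* of the Gli1+ library was found in mesenchymal cells of no named type (176 against 117 CPM) and not in tenocyte-like cells (298 against 365 CPM), while in adventitial-like cells the intervals overlapped at 79.6 (71.6 to 88.3) and 75.4 CPM (69.5 to 81.6), and tenocyte-like cells were 10.3% of the kept cells of the uninjured Gli1+ library against 1.80% of the Gli1- library.

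Cells were also assigned to types by lists of marker genes that hold none of the members. Some of their leading genes are markers from these lists and so do not bear on the names. These were *Kera*, *Tnmd*, *Fmod* and *Scx* in tenocyte-like and *Pi16* and *Dpp4* in adventitial-like cells. Chondrocyte-like cells had *Col2a1* and *Col9a1*, and myeloid-like cells *C1qa* and *Adgre1*. Leading genes outside the lists were *Cilp2* and *Angptl7* in tenocyte-like and *Cadm3* and *Efemp1* in adventitial-like cells. In chondrocyte-like cells they were *Snorc* and *Ucma*, and in myeloid-like cells *Cd163* and *Vsig4*. Endothelial-like cells were led by *Selp* and *Sox17*, which are not in their list, and by *Ptprb*, which is. The mesenchymal cells that matched no narrower list had *Saa3*, *Cxcl5* and *Mmp3* as leading genes. The types are ranges of a marker level and not sharp classes, and in uninjured Gli1+ tendon 691 cells lay within 2 times of the adventitial threshold, which 398 cells passed. In uninjured Gli1+ tendon the summed level of the secretion and folding genes was highest in tenocyte-like cells, at 7787 CPM (7723 to 7851). It was 6171 CPM in mesenchymal cells of no named type and 6102 CPM in adventitial-like cells, whose intervals overlap. This fraction, sorted for the reporter, also held 2812 T cell-like and 404 myeloid-like cells among 7227, and the later Gli1+ libraries held 1 T cell-like cell at most. Myeloid-like cells were at 4745, T cell-like cells at 4446, mural-like cells at 4098, endothelial-like cells at 3914 and epidermal-like cells at 3520 CPM.

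**Figure D3:**
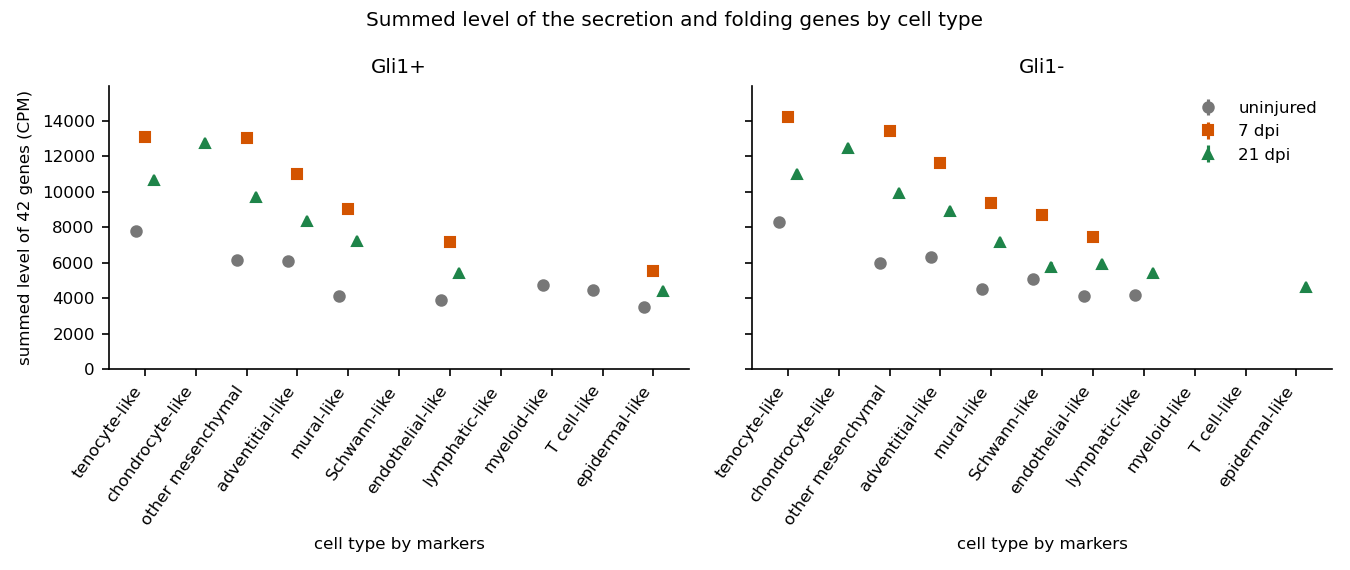
Summed level of the 42 genes in CPM by marker-defined cell type in the Gli1+ (left) and Gli1- (right) libraries, for types with at least 50 cells, in uninjured tendon (circles), at 7 dpi (squares) and at 21 dpi (triangles), with 95% counting intervals that are mostly smaller than the symbols. In each type with all 3 time points the order is 7 dpi, 21 dpi and uninjured, and tenocyte-like cells lie above endothelial-like cells at each time point.

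The higher level at 7 dpi was seen within each type that had at least 50 cells at both times. In Gli1+ cells the log2 ratio over uninjured was 0.75 (0.73 to 0.76) in tenocyte-like, 0.85 (0.83 to 0.87) in adventitial-like and 1.08 (1.07 to 1.09) in the other mesenchymal cells. In Gli1- cells it was 0.77, 0.88 and 1.18. The other types had ratios above 0 too, with 0.88 and 0.85 in endothelial-like, 1.14 and 1.06 in mural-like and 0.77 in Schwann-like cells (Gli1- only) and 0.65 in epidermal-like cells (Gli1+ only). In these types the collagen genes also took a larger share of the UMIs after injury. At 7 dpi the share was 1.68% (Gli1+) and 1.61% (Gli1-) in mural-like and 1.47% in Schwann-like cells. The *Pdgfra* cells of uninjured tendon had less, at 1.32% (Gli1+) and 1.08% (Gli1-). In endothelial-like cells of the Gli1- libraries the share was 0.0604%, 1.0% and 0.358%, and how much of it, or of the secretion and folding genes in these types, was free RNA from other cells was not tested.

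Single members differed in how they were spread over the types. *Plod2* was at 298 CPM in tenocyte-like cells of uninjured Gli1+ tendon and at 31.6 CPM in endothelial-like and 3.86 CPM in T cell-like cells, and *Serpinh1* at 456, 155 and 4.23 CPM. *Fkbp10* was at 65.7, 4.82 and 0.581 CPM in the same 3 types. *Hspa5* in contrast was at 892, 529 and 852 CPM and *Herpud1* at 150.5, 96.3 and 118 CPM, so that T cell-like cells held nearly the tenocyte-like level of BiP and almost none of *Plod2*, *Serpinh1* and *Fkbp10*. Other collagen-specific genes were not near 0 there, with *P4ha1* at 91.0 against 283 CPM in tenocyte-like cells and *Ppib* at 296 against 474 CPM.

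Tenocyte-like cells also gave *P4ha1* a course of its own. In Gli1+ cells of this type it was at 283, 172 and 124 CPM and in Gli1- cells at 265, 182 and 126 CPM, highest before injury in both fractions. Adventitial-like cells had it at 97.0, 109 and 70.5 CPM and at 102, 115 and 69.1 CPM, highest at 7 dpi. *P4ha2* in tenocyte-like cells ran the other way, at 13.6, 58.8 and 73.3 CPM and at 23.7, 81.7 and 83.5 CPM. Here *P4ha3* was also lowest before injury, at 15.9, 65.4 and 64.9 CPM and at 18.9, 85.9 and 67.6 CPM.

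At 21 dpi 187 Gli1+ and 268 Gli1- cells were chondrocyte-like. Their summed level was 12742 CPM (12612 to 12873) and 12460 CPM (12353 to 12568), above that of tenocyte-like cells of the same libraries at 10643 and 11000 CPM, a log2 ratio of 0.26 (0.24 to 0.28) and 0.18 (0.17 to 0.19). In each fraction 7 members were higher in chondrocyte-like than in tenocyte-like cells, where 14.7% and 14.1% of all genes were, so the count of members is near that of all genes. In Gli1+ cells 1 member was lower and in Gli1- cells 2 (24.1% and 21.9% of all genes). *P4ha1*, *P4ha2*, *Plod2*, *P3h1*, *Ppib* and *Ssr4* were higher in both fractions. *Plod2* was at 959 and 890 CPM in chondrocyte-like against 509 and 546 CPM in tenocyte-like cells, and *Ppib* at 1915 and 1791 against 1034 and 1025 CPM. *P3h1* was at 111 and 121 against 56.3 and 60.7 CPM. *P4ha3* was lower in both, at 31.2 and 39.6 against 64.9 and 67.6 CPM, and *Serpinh1* was at 1073 and 1116 against 1344 and 1398 CPM, which did not pass 0.58.

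Within a library, cells were ranked by the share of UMIs from the 10 collagen genes and split into 4 groups of equal size, and the level of the secretion and folding genes was taken per 1000000 UMIs outside these collagens. In uninjured tendon the level from the lowest to the highest group was 4994, 5539, 6477 and 7710 CPM in Gli1+ cells and 4862, 5438, 5921 and 7418 CPM in Gli1- cells. At 21 dpi it was 7703, 9766, 10583 and 11232 CPM and 7783, 9930, 10994 and 11360 CPM. At 7 dpi it was 11411, 14051, 13862 and 13341 CPM and 13441, 14508, 14183 and 13910 CPM, lowest in the lowest group, highest in the next and lower again above that. The groups share a library but not a depth, since the median was 6360 UMIs in the lowest and 11835 UMIs in the highest group of Gli1+ cells at 21 dpi, and the part of depth was not tested. They also hold the *Pdgfra* cells that matched another cell type (346 of 5245 in Gli1+ cells at 7 dpi). The part of cell type in these levels was not tested either.

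**Figure D4:**
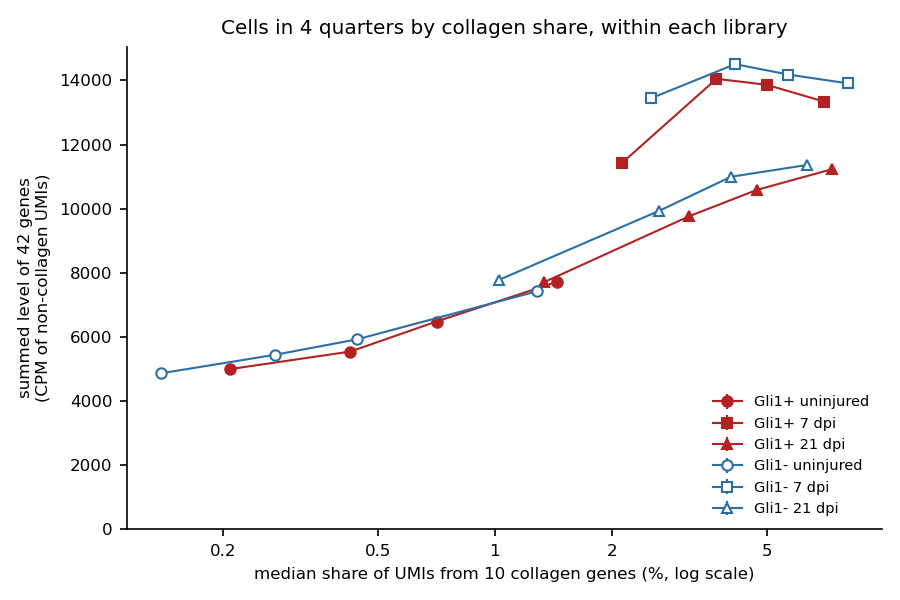
Summed level of the 42 genes in CPM of UMIs outside 10 collagen genes (y axis from 0) against the median collagen share in percent (log scale) of the 4 groups of cells in each library, Gli1+ filled and Gli1- open, with lines joining the groups of a library. The level goes up with the collagen share in uninjured tendon and at 21 dpi, and at 7 dpi it lies between 11411 and 14508 CPM with the highest value in the group next to the lowest.

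The log2 ratio of the highest over the lowest group was 0.63, 0.23 and 0.54 in the Gli1+ fraction and 0.61, 0.05 and 0.55 in the Gli1- fraction, beside medians over all genes between -0.19 and -0.07. *Serpinh1* had 1.87, 0.71 and 1.29 and then 1.70, 0.41 and 1.25, and *Fkbp10* had 2.45, 0.49 and 1.15 and then 1.64, 0.18 and 0.99. The ratio of *Hspa5* stayed between -0.17 and 0.08 in the 6 libraries. At 7 dpi that of *Manf* was -0.46 and -0.51, and that of *Sdf2l1*, a partner of the DnaJ proteins of the ER, was -0.997 and -0.72. In uninjured tendon *Calr* (0.63 and 0.71) and *Hsp90b1* (0.69 and 0.57) were also above 0, and the collagen-specific *P4ha1* was at -0.17 and -0.11 at 21 dpi. Of the 42 members 26, 7 and 14 passed 0.58 in the Gli1+ fraction, beside 10.4%, 12.5% and 7.36% of all genes, and 21, 3 and 15 in the Gli1- fraction, beside 8.70%, 6.76% and 7.76%. At 7 dpi 1 member was lower in each fraction and at the other times none, beside 16.3%, 18.4% and 17.6% of all genes for Gli1+ cells and 13.6%, 21.7% and 20.3% for the other fraction.

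Other genes of the same pathway, from lists that hold no member, were counted in the same way against the same shares of all genes. Of 12 oligosaccharyltransferase genes, which attach N-glycans to entering chains, 7 were higher at 7 dpi in Gli1+ and 8 in Gli1- cells and none lower. *Ostc* moved most, from 112 CPM before injury to 399 CPM at 7 dpi in Gli1+ cells and from 114 to 388 CPM in the other fraction, and *Stt3b*, a catalytic subunit, was lowest in the list with log2 ratios of -0.17 and -0.29. Of 8 genes of the signal recognition particle and its receptor 6 were higher in both fractions, led by *Srp14* in Gli1+ (0.92) and *Srp9* in Gli1- cells (0.94), and the lowest were *Srpr* (-0.16) and *Srp54a* (-0.25).

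Most of the cargo and return receptors were higher at 7 dpi. Of 11 genes 9 were higher in Gli1+ and 7 in Gli1- cells at 7 dpi and none lower, with *Lman1*, the mannose lectin of the ER to Golgi route, at 81.7 and 308 CPM in Gli1+ cells and *Kdelr3*, a receptor that returns ER residents, at 41.1 and 147 CPM in Gli1- cells. *Tmed10* had the smallest ratios, 0.27 and 0.47. The COPI coat, which carries material back to the ER, had 7 of 10 higher in both fractions, led by *Copz2* (1.48 and 1.76), with *Copg2* lowest (-0.17 and -0.37). Of 13 further COPII genes 3 were higher in each fraction, which is near the share of all genes, and 1 and 2 were lower, with *Sar1a* (1.24) and *Sec22b* (1.08) at the top and *Sec31b* at the bottom, with 1.91 CPM before injury and 0.518 CPM at 7 dpi in Gli1+ cells.

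Among 11 other genes of disulfide formation and oxidation 6 were higher in each fraction and only *Ero1b* lower. *Pdia5* was at 8.46 before and 55.4 CPM after injury in Gli1+ cells and at 11.4 and 62.1 CPM in the other fraction, and *Ero1b* at 12.2 and 2.70 and at 6.60 and 2.86 CPM. Of 11 further genes that modify collagen or fold it, 6 and 7 were higher and 1 and 2 lower. *Fkbp11* showed the largest ratio of any gene in these lists in Gli1+ cells, at 19.6 and 201 CPM, and was at 19.8 and 189 CPM in Gli1- cells. *Colgalt2*, a collagen galactosyltransferase, was the lowest, at 25.9 and 9.11 and at 67.9 and 12.0 CPM. Of 11 genes of procollagen processing and crosslinking 4 and 8 were higher and 2 lower in each fraction, with *Lox*, the crosslinking oxidase, at 187 and 525 and at 101 and 563 CPM and *Pcolce2*, an enhancer of procollagen cleavage, at 486 and 37.8 and at 340 and 59.3 CPM.

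Of 15 sensors and regulators of ER stress, 14 could be counted in Gli1+ cells at 7 dpi, of which 3 were higher and 7 lower, and in Gli1- cells 4 of 15 were higher and 6 lower. The counts of higher genes are near the shares of all genes (22.1% and 23.4%), and those of lower genes stand beside 32.8% and 27.1%. With TMM scaling 3 were higher and 4 lower in Gli1+ cells and 6 were higher and 6 lower in the other fraction. The shares of all genes were then 31.4% and 27.0% higher and 23.2% and 23.4% lower. *Ern1*, which encodes the sensor IRE1 alpha, was at 113 and 32.4 CPM in Gli1+ cells, and *Atf3* at 2103 and 916 CPM in Gli1- cells. *Atf3* is also among the dissociation genes, which were highest in the uninjured libraries. The highest was *Asns* in Gli1+ cells, at 9.41 and 25.9 CPM. In Gli1- cells it was *Chac1*, near the limit of detection at 0.0561 and 0.839 CPM. Of 15 genes of ER-associated degradation 14 could be counted in Gli1+ cells, of which 3 were higher and 1 lower at 7 dpi. In Gli1- cells 3 of 15 were higher and none lower. The counts of higher genes are again near the shares of all genes, while those of lower genes stand beside 32.8% and 27.1%. *Derl2* (0.90) and *Syvn1* (-0.65) bounded the list in Gli1+ cells, and in Gli1- cells *Os9* (-0.24) and *Derl3*, which was under 1 CPM.

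At 21 dpi the cargo and return receptors still had 8 of 11 genes higher in each fraction and the collagen-modifying list 7 of 11, with none and 1 lower. Procollagen processing and crosslinking had 7 of 11 higher in Gli1+ and 8 in Gli1- cells and 2 lower in each. Oligosaccharyltransferase had 6 and 5 of 12 higher, the signal recognition particle 3 and 2 of 8 with none and 1 lower, COPI 3 and 2 of 10, disulfide and oxidation genes 4 and 4 of 11 with 1 lower in each, and the further COPII genes 4 and 1 of 13 with 2 and 3 lower. The stress sensors had 3 and 4 of 15 higher and 5 lower in each, and ER-associated degradation 0 and 1 of 14 higher with 1 and none lower. At this time 14.8% and 20.8% of all genes were higher and 35.6% and 27.8% lower, so that the Gli1- counts of the signal recognition particle and COPI and both counts of the stress sensors are near the share of higher genes. With TMM scaling the counts of higher genes became 6 and 5 for the signal recognition particle, 8 and 5 for COPI, 9 and 7 for disulfide and oxidation genes and 5 and 2 for ER-associated degradation, and the stress sensors in Gli1+ cells turned to 6 higher and 2 lower. The shares of all genes with this scaling were 30.2% and 26.9% higher and 18.9% and 21.3% lower. Without this scaling, of the 10 collagen genes 9 were higher and none lower in every comparison with uninjured tendon.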

How the data were processed

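The deposited values are raw counts (UMIs for a gene and a cell barcode), and the authors had not yet applied their cell filters. The matrix headers name Cell Ranger 9.0.0. The submitters' processing notes name Cell Ranger 3.1.0, STAR and mm10, so the build behind the counts is not settled, and positions come from RefSeq only. Libraries held 8236 to 16437 barcodes and 72196599 to 135202247 UMIs.

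The filters of the study's methods kept cells with 200 genes and 1000 UMIs or more, with log10 genes over log10 UMIs not below 0.7, and with no more than 5% of UMIs mitochondrial or 5% from hemoglobin. No doublet caller was run. Cells that matched the marker lists of 2 lineages were removed (2.57% to 11.6%), and doublets within a type stay. This left 7227 to 11233 cells per library. A cell matched a list with at least 3 of its markers and a list level of at least 1000 CPM and 5 times the library's median in *Pdgfra* cells (a fixed, higher level for mesenchymal lists), thresholds chosen after seeing the levels of the lists. The members, lists and rules were chosen with earlier results of these data known.

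UMIs were summed over cells and divided by the total. Levels have exact Poisson intervals and ratios have exact binomial (Clopper-Pearson) intervals. The ratio intervals were checked on simulated Poisson counts, which hold counting error and no spread between cells or mice. The log2 threshold of 0.58 is the fold of the study's methods. All 42 genes could be named. By the naming rule every collagen-specific and stress gene has its value in every library, as do the 2 most and the 1 least changed of each other role, and of each pathway list the genes with the highest and the lowest ratio at 7 dpi are named. TMM scaling used edgeR 4.0.16 (R 4.3.3), and intervals used scipy 1.17.1. Alternatives were other cell sets, scalings and thresholds.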

Additional observations from a re-analysis of the deposited data

How the results depend on the processing

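Each condition has 1 library, so no replicate could be left out, and no paired fit of the fractions over the 3 times was made. Alternatives of cells and scaling were run on the summed log2 ratio, those of the threshold and the UMI minimum on counts of members alone, and the cause of a move was not tested unless the alternative itself gives it. Over uninjured tendon the ratio (Gli1+ at 7 and 21 dpi, then Gli1- at 7 and 21 dpi) stayed above 0 throughout: 1.17, 0.81, 1.22 and 0.74 in all kept cells, 0.997, 0.58, 1.15 and 0.69 without cell filters, 1.32, 1.08, 1.25 and 0.89 with TMM scaling, and 1.07, 0.66, 1.21 and 0.76 with collagen UMIs left out of the total. At 7 dpi it was 1.03 and 1.13 with at least 2 *Pdgfra* UMIs, and 1.05 in Gli1+ cells without those matching another type. Within one sex it was 0.89 and 1.16 at 7 dpi (Y-linked) and 0.65 at 21 dpi in Gli1+ cells (*Xist*), and could not be computed elsewhere, where a library had under 50 such cells.

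Gli1+ over Gli1- cells of uninjured tendon reversed to -0.12 in all kept cells and -0.19 with TMM scaling, and was 0.0617 without cells matching another type, 0.0699 without cell filters and 0.19 in Y-linked cells. At 7 dpi it was -0.17, -0.0424, -0.0344, -0.0841, -0.12, -0.0863 and -0.0794 (all kept cells, 2 *Pdgfra* UMIs, without other types, no cell filters, TMM, no collagen UMIs, Y-linked cells), and at 21 dpi -0.00942 with TMM and -0.0403 without collagen UMIs. With a log2 threshold of 1 the counts of higher members were 17, 10, 21 and 12. The share of all genes past this threshold was not computed, so these counts cannot be set against all genes. Of 35 counts of members under the alternatives 32 stayed within 1.5 times of the reported count. This range is wide, as it takes in the change from 21 to 30 members with TMM scaling in Gli1+ cells at 21 dpi. The counts without a minimum of UMIs could not change, because all 42 members passed the minimum in each comparison. Libraries were not brought to one depth, and the spread between mice is unknown.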
